A study of Mus musculus with 6 samples.

Results

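The genes described here are 10 members of the fibroblast growth factor (FGF) family, taken by name: the ligand genes Fgf1, Fgf2, Fgf7, Fgf9, Fgf10 and Fgf18 and the receptor genes Fgfr1, Fgfr2, Fgfr3 and Fgfr4. All 10 were found among 23352 gene symbols in expression tables of sorted mouse omental stroma. The omentum is a fold of abdominal fat that carries lymphoid clusters called milky spots, and the study looked for its stromal cells that make retinoic acid. Stromal cells of wild-type (WT) C57BL/6 mice were sorted by surface proteins and by aldehyde dehydrogenase (ALDH) activity, and RNA of 6 populations was sequenced, with 1 library each. The age of the mice and the number pooled for a library are not given in the sources used here.

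All populations lacked the leukocyte protein CD45. P1, P2 and P3 carried CD140a and CD105 and had high, intermediate and low ALDH activity, in that order. P4 and P5 carried CD140a but not CD105, with intermediate and low ALDH activity. P6 was low for CD140a and positive for ALDH activity. Levels are given in FPKM, fragments scaled to transcript length and to the mapped reads of a library, which allows genes of different length to be set side by side. Depth, estimated from the steps between low FPKM values, ran from 36.8 M reads in P6 to 61.6 M reads in P5. With no replicates, no difference could be tested, and the 95% intervals below cover counting error only.

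The gate genes were read first. Eng, which encodes CD105, lay between 42.6 and 52.4 FPKM in P1 to P3 and at or below 0.728 FPKM elsewhere. Pdgfra, which encodes CD140a, had 5.36 FPKM in P6 and at least 117 in the other populations, and Ptprc, which encodes CD45, had at most 0.755 FPKM. Aldh1a2, which encodes a retinoic acid synthesizing enzyme, had 469 FPKM (P1), 78.8 (P2), 134 (P3), 285 (P4), 145 (P5) and 209 (P6). Its level in P4 was therefore above that in P2, although both gates were set at intermediate ALDH activity. Aldh1a2 in P2 was also below its levels in P3 and P5, whose gates were set at low ALDH activity. From intermediate to low ALDH activity, it thus rose from P2 to P3 but fell from P4 to P5.

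FGF ligands bind receptor tyrosine kinases together with heparan sulfate chains on the cell surface, and the bound receptor signals through docking proteins such as FRS2 to the ERK cascade. That cascade induces its own brakes, among them the Sprouty and DUSP proteins, and transcription factors of the ETV group. FGF7 and FGF10 are known as ligands made by mesenchyme that act on an epithelial splice form of FGFR2, and FGF9 is made by the mesothelium of the developing lung. Splice forms of the receptors, which set ligand choice, cannot be told apart in values summed over a gene.

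Promoter sequence is shown for a pair of ligands whose levels were lowest in P5 among P1 to P5, Fgf7 and Fgf18, and for a pair of receptors whose levels were highest in P5, Fgfr2 and Fgfr4. RefSeq entries (build GRCm38.p6) were matched by symbol for 8 of the 10 genes, and none for Fgf1 and Fgfr1. Each line gives the 250 bases before the annotated start, 5′ to 3′ on the strand of the gene, at chr2:126034408-126034657 on the plus strand for Fgf7, chr11:33147401-33147650 on the minus strand for Fgf18, chr7:130266809-130267058 on the minus strand for Fgfr2 and chr13:55152568-55152817 on the plus strand for Fgfr4. Capitals mark matches, on either strand, to AGGTCA, a half-site bound by retinoic acid receptors, GGGCGG, bound by Sp proteins, CACGTG, bound by MYC and its relatives, TATAAA, found near some transcript starts, or CCGGAA, a core of sites bound by ETS factors. The motifs and the genes shown were chosen after the levels were seen, and a match is a description of sequence only.
Fgf7: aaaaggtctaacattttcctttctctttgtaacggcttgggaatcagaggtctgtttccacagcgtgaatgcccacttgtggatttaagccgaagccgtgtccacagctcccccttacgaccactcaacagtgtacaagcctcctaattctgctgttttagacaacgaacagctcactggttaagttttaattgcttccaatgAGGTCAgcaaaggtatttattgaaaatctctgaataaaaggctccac
Fgf18: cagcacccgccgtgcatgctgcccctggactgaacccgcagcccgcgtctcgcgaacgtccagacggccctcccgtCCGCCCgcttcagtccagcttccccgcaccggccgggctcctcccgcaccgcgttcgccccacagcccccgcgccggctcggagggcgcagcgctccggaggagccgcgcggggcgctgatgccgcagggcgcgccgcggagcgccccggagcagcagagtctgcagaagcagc
Fgfr2: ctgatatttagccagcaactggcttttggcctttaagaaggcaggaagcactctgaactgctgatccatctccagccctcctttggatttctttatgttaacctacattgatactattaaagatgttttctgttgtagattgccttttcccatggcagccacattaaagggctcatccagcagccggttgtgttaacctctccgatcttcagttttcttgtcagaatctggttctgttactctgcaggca
Fgfr4: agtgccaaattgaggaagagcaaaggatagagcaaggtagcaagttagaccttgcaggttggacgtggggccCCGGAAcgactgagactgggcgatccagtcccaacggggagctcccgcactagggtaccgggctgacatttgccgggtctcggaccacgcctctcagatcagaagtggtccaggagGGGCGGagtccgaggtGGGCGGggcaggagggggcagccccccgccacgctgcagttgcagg
AGGTCA occurred 1 time in the Fgf7 stretch and in none of the other stretches printed, and 14.0% of 32851 promoter entries of the same length held it. GGGCGG occurred 1 time for Fgf18 and 2 times for Fgfr4, against 32.7% of entries with at least 1 match. CCGGAA occurred 1 time for Fgfr4, against 12.0% of entries. CACGTG and TATAAA, held by 6.02% and 12.4% of entries, had no match in the stretches printed, and Fgfr2 had no match to any of the motifs. GC content was 43.6% for Fgf7, 77.2% for Fgf18, 44.0% for Fgfr2 and 64.0% for Fgfr4, with a median of 52.4% over all entries.

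Fgf1, a ligand that binds every FGF receptor, had 12.1 FPKM (P1), 10.4 (P2), 35.4 (P3), 131 (P4), 166 (P5) and 171 (P6). It was low in P1 and P2, intermediate in P3 and high in P4, P5 and P6. Neighbours in the order of levels differed beyond counting error, apart from P6 and P5 (ratio 1.03, 95% interval 0.964 to 1.10) and P1 and P2 (ratio 1.16, 0.916 to 1.48). In bulk libraries such as these, fewer cells of a type and less RNA per cell cannot be told apart.

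Fgf2, which encodes a ligand that like FGF1 lacks a classical signal peptide, had 41.3 FPKM (P1), 27.7 (P2), 19.6 (P3), 22.5 (P4), 14.5 (P5) and 10.8 (P6). It ran against Fgf1, with its highest level in P1 and its lowest in P6. Only P4 and P3 were neighbours that counting error could not separate (ratio 1.15, 0.983 to 1.34). Nudt6 lies across Fgf2 on the other strand and shares 640 of the 6782 exon bases of Fgf2, or 9.44%. Nudt6 had 21.6 FPKM (P1), 16.6 (P2), 14.3 (P3), 14.0 (P4), 12.7 (P5) and 9.69 (P6). No source used here states that the library kit or the counting kept strand, so reads from the shared bases cannot be assigned to either gene. Arhgap26 over Fgf1 and Fam227b over Fgf7 shared no exon bases with them and had at most 1.58 and 0.293 FPKM. The annotation also places noncoding or unclassified genes without a listed level over exons of Fgfr3 (13.9% of its exon bases), Fgfr1 (1.70%) and Fgf10 (1.63%), so their values may also hold reads of the other strand.

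Fgf7, or keratinocyte growth factor, had 31.1 FPKM (P1), 20.3 (P2), 17.9 (P3), 10.8 (P4), 3.63 (P5) and 0.317 (P6). Levels fell at every step from P1 to P6, and each step exceeded counting error. Fgf10, of the same subfamily, had 11.8 FPKM (P1), 17.3 (P2), 16.1 (P3), 9.67 (P4), 8.23 (P5) and 2.16 (P6). It was highest in P2 and P3, which differed by 1.08 times (95% interval 1.03 to 1.12), and lowest in P6. The ratio of Fgf7 to Fgf10 within a library was 2.63 (P1), 1.18 (P2), 1.11 (P3), 1.12 (P4), 0.442 (P5) and 0.147 (P6). Fgf7 was thus the more abundant of the pair in P1 to P4, and Fgf10 in P5 and P6.

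Fgf18, a ligand known from bone and lung development, had 51.6 FPKM (P1), 31.4 (P2), 20.3 (P3), 26.4 (P4), 11.3 (P5) and 35.3 (P6). Its level was highest in P1 and lowest in P5, and unlike Fgf2, Fgf7 and Fgf10 it was high in P6. Fgf9, which encodes a ligand of the developing lung and gonad, had 0.330 FPKM (P1), 0.379 (P2), 0.499 (P3), 0.563 (P4), 0.458 (P5) and 9.51 (P6). It was below 1 FPKM in P1 to P5, where no neighbours in the order of levels differed beyond counting error. P6 stood 16.9 times above P4, the next population (95% interval 11.8 to 24.9).

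**Figure D1:**
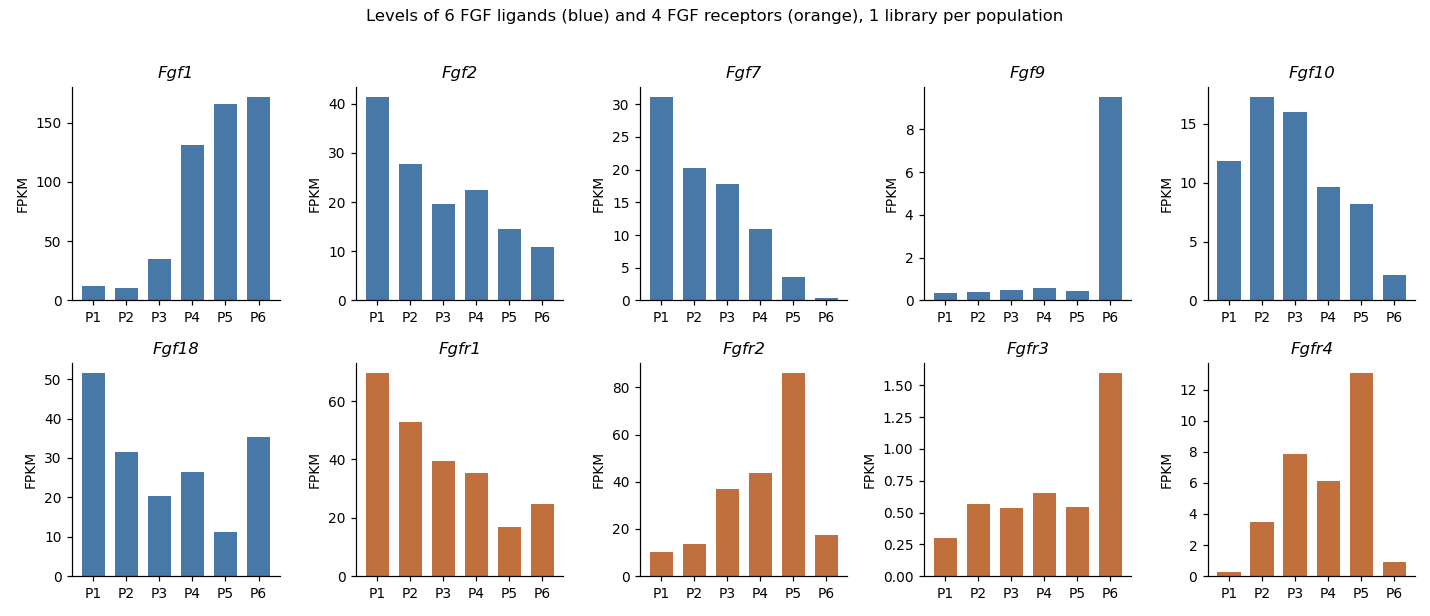
Bars give the FPKM of each member (vertical axes, each from 0 and on its own scale) in the single library of each population P1 to P6 (horizontal axes). Fgf1 rose to 171 FPKM in P6, Fgf9 was above 1 FPKM only in P6, and Fgfr1 and Fgfr2 ran in opposite directions from P1 to P5.

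Summed over the 6 ligands, the level was 148 FPKM (P1), 108 (P2), 109.8 (P3), 201 (P4), 204 (P5) and 229.6 (P6). Fgf1 made up 8.18% (P1), 9.71% (P2), 32.3% (P3), 65.2% (P4), 81.3% (P5) and 74.7% (P6). It was the most abundant ligand of the 6 in P3, P4, P5 and P6, whereas Fgf18 led in P1 and P2, with 34.8% and 29.2% of the sum. Shares within a library do not depend on the scaling of libraries by a constant.

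Of the 16 other ligand genes of the family, 3 reached 1 FPKM in any library, and 5 were listed at 0 in all. An exact 0 in these tables can be a failed estimate, since the abundant collagen gene Col3a1 was listed at 0 in P2 alone, but no member was listed at 0. Fgf23, a phosphate-regulating hormone made by bone cells, had 3.93 FPKM (P1), 11.9 (P2), 16.3 (P3), 1.90 (P4), 2.61 (P5) and 0.0335 (P6). It was highest in the CD105+ populations P2 and P3 and near 0 in P6. Fgf11, an intracellular family member, ran from 2.07 FPKM in P5 to 6.83 in P2. Fgf16, a close relative of Fgf9, had 1.36 FPKM in P6 and at most 0.188 FPKM in the other populations.

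Among the receptors, Fgfr1, which encodes the form typical of mesenchyme, had 69.7 FPKM (P1), 52.7 (P2), 39.5 (P3), 35.5 (P4), 16.9 (P5) and 24.6 (P6). It was highest in P1 and fell to its lowest level in P5, with P6 between P4 and P5. Fgfr2, which encodes the receptor of FGF7 and FGF10 in its epithelial splice form, had 10.3 FPKM (P1), 13.8 (P2), 36.9 (P3), 43.8 (P4), 86.2 (P5) and 17.5 (P6). It was lowest in P1 and highest in P5, 1.97 times above P4 (95% interval 1.91 to 2.03). Every neighbouring pair of populations in the orders of Fgfr1 and Fgfr2 differed beyond counting error.

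Fgfr4, which encodes the receptor of the gut hormone FGF15 in liver, had 0.248 FPKM (P1), 3.47 (P2), 7.87 (P3), 6.15 (P4), 13.1 (P5) and 0.936 (P6). Like Fgfr2, it was highest in P5 and lowest in P1, and it was below 1 FPKM in P6 as well. Fgfr3, which encodes a brake on cartilage growth, had 0.298 FPKM (P1), 0.566 (P2), 0.539 (P3), 0.652 (P4), 0.541 (P5) and 1.60 (P6). It reached 1 FPKM in P6 alone, 2.45 times above P4 (95% interval 1.87 to 3.21), and P2 to P5 could not be ordered beyond counting error.

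The summed level of the 4 receptors was 80.5 FPKM (P1), 70.5 (P2), 84.8 (P3), 86.0 (P4), 117 (P5) and 44.6 (P6). Fgfr1 made up 86.5% (P1), 74.7% (P2), 46.6% (P3), 41.2% (P4), 14.5% (P5) and 55.2% (P6). The share of Fgfr2 was 12.8% (P1), 19.6% (P2), 43.5% (P3), 50.9% (P4), 73.9% (P5) and 39.1% (P6). The leading receptor thus changed from Fgfr1 in P1, P2 and P3 to Fgfr2 in P4 and P5, and was Fgfr1 again in P6. The ratio of Fgfr2 to Fgfr1 was 0.148 (P1), 0.262 (P2), 0.933 (P3), 1.23 (P4), 5.11 (P5) and 0.709 (P6). Fgfr4 held 11.2% of the receptor sum in P5 and 0.307% in P1.

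**Figure D2:**
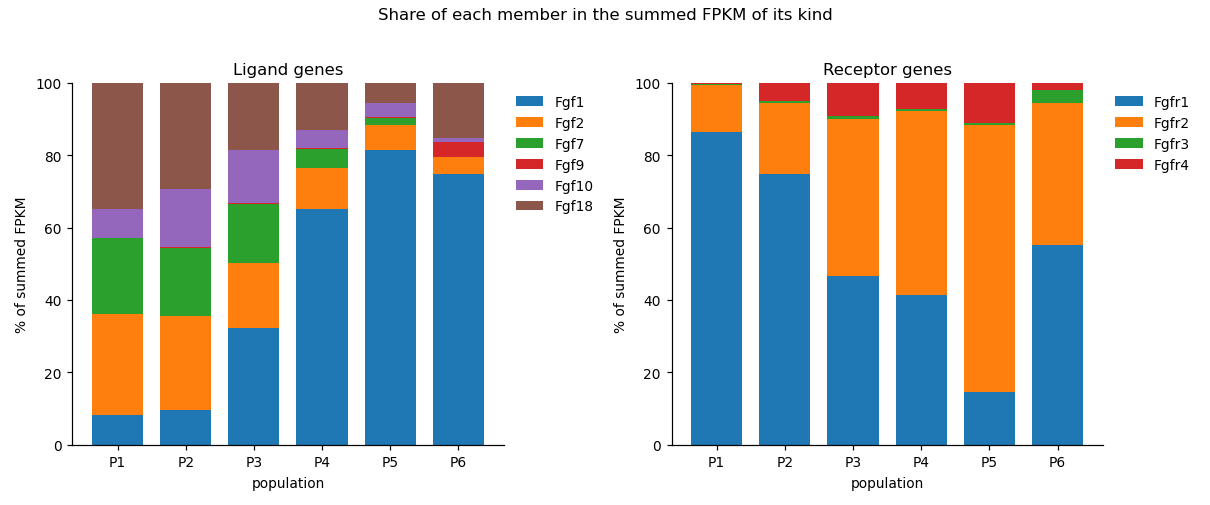
Stacked bars give the share of each gene (vertical axes, % of the summed FPKM of the 6 ligands, left, or the 4 receptors, right) in each population (horizontal axes). Fgf1 held 8.18% of the ligand sum in P1 and 81.3% in P5, and Fgfr1 gave way to Fgfr2 between P1 and P5.

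Populations were then compared along the gates. A member was counted when its log2(FPKM + 0.1) differed by at least 1, that is 2-fold, with at least 1 FPKM on either side. This scale understates the change of low genes. P1 against P2 sets high against intermediate ALDH activity among CD105+ cells. Fgfr4 was 14.0-fold (95% interval 10.3 to 19.8) lower in P1, a log2 difference of -3.36. It was the only one of the 10 members counted in this comparison, against 612 of 11803 genes (5.19%) in all, so with 10 members the count is near that share. With a minimum of 5 FPKM, Fgfr4 was not counted. Fgf18 was 1.64-fold (95% interval 1.54 to 1.75) higher in P1, Fgf7 1.53-fold (95% interval 1.45 to 1.61) and Fgf2 1.49-fold (95% interval 1.32 to 1.69), all short of 2-fold. Fgf10 was 1.46-fold (95% interval 1.39 to 1.54) lower in P1 than in P2, also short of 2-fold. Fgf9 and Fgfr3 were below 1 FPKM on both sides here and in every other comparison among P1 to P5, so 8 members could be counted in each.

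P2 against P3 sets intermediate against low ALDH activity in the same CD105+ gate. Fgf1 was 3.39-fold (95% interval 2.81 to 4.13) lower in P2 and Fgfr2 2.67-fold (95% interval 2.53 to 2.82) lower. Fgfr4 was 2.27-fold (95% interval 2.07 to 2.49) lower in P2. These were the 3 members counted, all lower in P2, a share well above the 438 of 11980 genes (3.66%) in all. With a pseudocount of 1, Fgfr4 was no longer counted, which left 2 members. The largest difference in the other direction was that of Fgf18, 1.55-fold (95% interval 1.43 to 1.68) higher in P2.

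P4 against P5 makes the same step in ALDH activity among CD105- cells. Fgf7 was 2.99-fold (95% interval 2.69 to 3.33) higher in P4, Fgf18 2.34-fold (95% interval 2.11 to 2.59) higher, and Fgfr1 was higher by 1.07 log2 units. Fgfr4 was 2.13-fold (95% interval 1.98 to 2.28) lower in P4, and its interval included 2. These were the 4 members counted, a share well above the 646 of 12022 genes (5.37%) in all. Fgfr2, 1.97-fold (95% interval 1.91 to 2.03) lower in P4, fell just short of the threshold with an interval that included 2, and it passed after scaling to a common sum of FPKM or quantile normalization. Fgfr4 in turn was no longer counted with a pseudocount of 1 or after division by Gapdh, which left 3 members. Whether the step in ALDH activity differed between CD105+ and CD105- cells was not tested.

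P2 against P4 sets CD105+ against CD105- cells at intermediate ALDH activity. Fgf1 was 12.6-fold (95% interval 10.6 to 15.1) lower in P2, and Fgfr2 3.17-fold (95% interval 3.01 to 3.34) lower. These were the 2 members counted, near the share of 1527 of 12181 genes (12.5%) in all. Fgf7 was 1.87-fold higher in P2 and Fgf10 1.79-fold (95% interval 1.70 to 1.88) higher, both short of 2-fold, although the interval of Fgf7 included 2. Fgf7 passed after quantile normalization, which made 3 members. After division by Gapdh, which itself had 218 FPKM in P2 and 302 in P4, Fgf7, Fgf10 and Fgfr1 passed as well, which made 5 members.

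P3 against P5 makes the same comparison at low ALDH activity. Fgf7 was 4.92-fold (95% interval 4.45 to 5.45) higher in P3, and Fgfr1 2.34-fold (95% interval 2.24 to 2.45) higher. Fgf1 was 4.69-fold (95% interval 4.24 to 5.19) lower in P3, and Fgfr2 2.34-fold (95% interval 2.26 to 2.42) lower. These were the 4 members counted, a share above the 1655 of 12152 genes (13.6%) in all. After division by Gapdh, Fgfr2 was no longer counted and Fgf10 and Fgf18 were, and Fgf10 was also counted after quantile normalization or scaling by the median of ratios. The comparisons of CD105 use the same libraries as those of ALDH activity, so they do not stand apart from each other.

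P6, the CD140a-low population, was set against the mean of the other 5. Fgf9 was 21.3-fold higher in P6, Fgfr3 3.08-fold higher and Fgf1 2.41-fold higher. Fgf7 was 52.8-fold lower, Fgfr4 6.58-fold, Fgf10 5.85-fold, Fgf2 2.33-fold and Fgfr2 2.19-fold lower. Together, 8 of the 10 members were counted, against 2685 of 12625 genes (21.3%) in all. Fgf9 and Fgfr3 reached the minimum of 1 FPKM only through P6, where they are high, and without them the count is 6 of 8. Fgf18 and Fgfr1 were not counted, with log2 differences of 0.32 and -0.80. The mean hides differences among P1 to P5. Set against single populations, Fgf1 was not counted against P4 or P5, and Fgf2 not against P3 or P5. Fgfr2 was not counted against P1 or P2, where it was lower than in P6, and Fgfr4 not against P1, where it was also lower. Fgfr1 was counted against P1 and P2, and after division by Gapdh, which made 9 members, and Fgf18 was counted against P5. Fgfr3 was not counted with a pseudocount of 1 or a minimum of 5 FPKM.

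**Figure D3:**
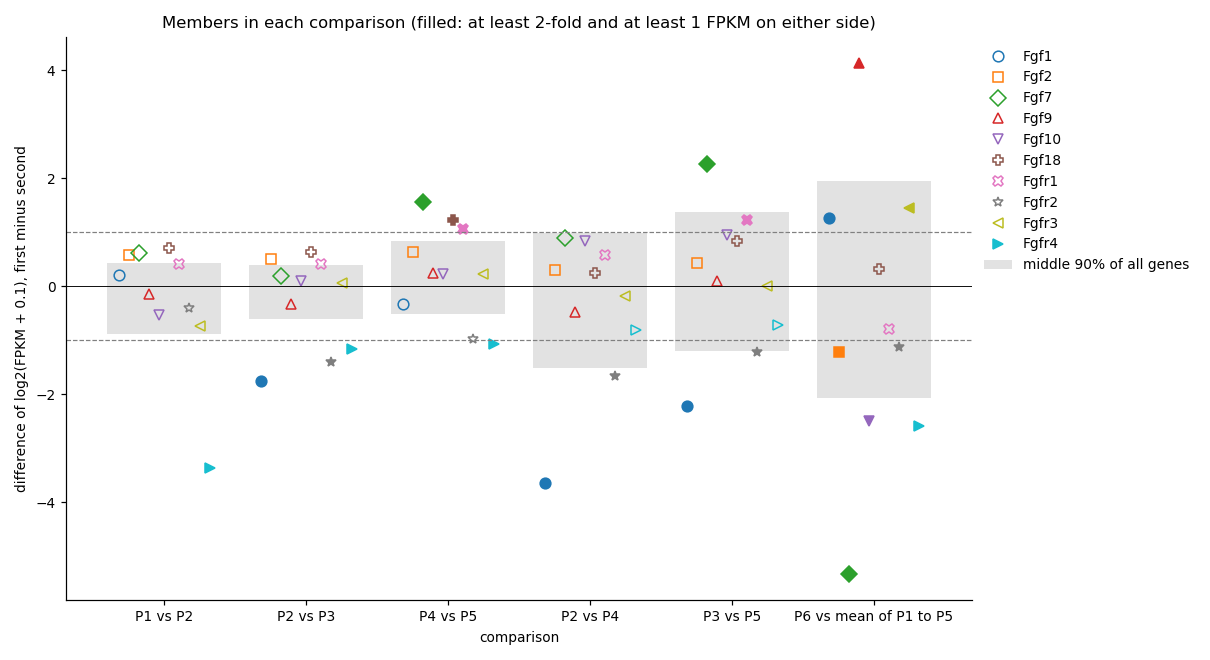
Symbols give the difference of log2(FPKM + 0.1) of each member (vertical axis, first population minus second) in each of the 6 comparisons (horizontal axis), with grey bars for the middle 90% of all genes and dashed lines at 2-fold. Filled symbols mark the members counted: Fgf1 lay below the grey bar in P2 vs P3, P2 vs P4 and P3 vs P5, and Fgf9 lay above it in P6.

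Across the CD140a+ populations, members were also sorted by an order that was chosen after their values were seen: P1 above P2, P2 above P3 and P3 above P5, with P4 between P1 and P5. No minimum size of a step was set, so genes that change little can meet the order or its reverse. Fgf2, Fgf7, Fgf18 and Fgfr1 fell in this order, 4 of the 10 members, against 1264 of 12904 genes (9.80%) that reached 1 FPKM. Fgfr2 and Fgfr4 rose in the reverse order, 2 of the 10, close to the 22.9% of such genes. The same members met each order under all 4 scalings of the libraries. Fgf1 missed the rising order only between P1 and P2, which counting error did not separate.

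Correlations of log2(FPKM + 0.1) over the 6 populations were computed for all 45 pairs of members and follow these orders only in part. Fgfr2 and Fgfr4 had a Pearson r of 0.86 and a Spearman rho of 0.89. Fgf2 and Fgf7 had an r of 0.89 and a rho of 0.94. Fgf18 and Fgfr2 ran in opposite directions (r = -0.93, rho = -0.89). Fgf7 followed Fgf18 weakly (r = 0.16, rho = 0.37), although both fell from P1 to P5, and ran against Fgfr2 in ranks more than in levels (r = -0.18, rho = -0.66). Fgf18 and Fgfr4 also ran in opposite directions (r = -0.90), with their populations in exactly reverse order. Among pairs outside the orders, Fgf1 ran against Fgfr1 (r = -0.89, rho = -0.89), Fgf7 (r = -0.76, rho = -0.94) and Fgf10 (r = -0.69, rho = -0.94). Fgf7 ran against Fgf9 (r = -0.91, rho = -0.83) and Fgfr3 (r = -0.90, rho = -0.71). Other such pairs were Fgf7 and Fgf10 (r = 0.95, rho = 0.83), Fgf9 and Fgf10 (r = -0.93, rho = -0.60) and Fgf9 and Fgfr3 (r = 0.93, rho = 0.77). In these and in the pairs of Fgf7 with Fgf9 and Fgfr3, P6 lies far from the other points. Counting error does not separate the levels of Fgf9 in P1 to P5. Each point is a single library, and the members of a pair share its cells and depth.

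The gene most like a member was sought by the same r among 8694 genes with a mean of at least 5 FPKM. For Fgfr2 it was Spry4 (r = 0.996), which encodes a feedback inhibitor of receptor signalling. For Fgfr4 it was Kcnj8 (r = 0.993), a potassium channel gene of pericytes, with 3.32 FPKM (P1), 15.2 (P2), 19.3 (P3), 18.4 (P4), 29.9 (P5) and 5.43 (P6). For Fgf10 it was Sparcl1, a matrix protein gene. Atf5, a stress-response transcription factor gene, was closest to Fgfr1, and 2010001M06Rik, an uncharacterized gene, to Fgf7. For Fgf2 it was Atp6v1b2, a proton pump gene, for Fgf9 Fkbp3, which encodes a nuclear prolyl isomerase, and for Fgf18 Gstm3, a glutathione transferase gene. Fkbp3 lay between 30.4 and 31.0 FPKM in P1 to P5 and had 38.1 in P6, so its match with Fgf9 rests on P6. With 6 points and so many genes, the highest r is high partly by selection.

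The other genes of the pathway were read from lists. Of 9 co-receptors and binding proteins, 6 reached 1 FPKM. Flrt2, a membrane protein that binds FGF receptors, had 25.0 FPKM (P1), 28.8 (P2), 57.1 (P3), 82.9 (P4), 147 (P5) and 85.7 (P6). It followed Fgfr2 up to P5 but stayed high in P6. Fgfrl1, a receptor without a kinase domain, had 18.1 FPKM (P1), 22.3 (P2), 19.6 (P3), 10.9 (P4), 8.46 (P5) and 6.46 (P6). Klotho genes Kl and Klb, the co-receptors of hormone-like FGFs, stayed at or below 0.161 and 0.142 FPKM, whereas their relative Lctl had 3.48 FPKM in P6 and at most 0.213 elsewhere. Lctl thus reached 1 FPKM only in P6. Flrt1, a relative of Flrt2, reached it in P4 and P5 too and was highest in P6, with 13.6 FPKM, against 0.129 in P1. Kl and Klb were named after their values were seen.

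Heparan sulfate core proteins carry the chains that hold FGF at its receptor. Sdc4, which encodes syndecan-4, had 99.1 FPKM (P1), 116 (P2), 231 (P3), 314 (P4), 529 (P5) and 281 (P6). It rose from P1 to P5, and it was the most abundant gene of its list in P3, P4 and P5. Gpc3, which encodes glypican-3, had 362 FPKM (P1), 242 (P2), 164 (P3), 145 (P4), 43.8 (P5) and 293 (P6). It fell from P1 to P5 and was high again in P6. Fgf18 was also lowest in P5 and high in P6, but it rose from P3 to P4. In P3 against P5, 5 of 12 genes of this list that reached 1 FPKM were at least 2-fold higher in P3 and 1 lower, against 13.6% of all genes in either direction, with a median log2 difference of 0.19, against -0.09 over all genes. Of the 5, Sdc3 (3.30 FPKM in P3, 0.810 in P5) and Gpc1 (1.80 and 0.690) passed the minimum only through P3, where they were higher. In the other comparisons the counts were 1 of 11 in P1 against P2 (all genes 5.19%), 0 of 11 in P2 against P3 (3.66%), 3 of 11 in P4 against P5 (5.37%), 5 of 11 in P2 against P4 (12.5%) and 6 of 12 in P6 (21.3%). These counts also hold genes that passed the minimum on their higher side only. They were Sdc3 in P4 against P5 (2.12 and 0.810 FPKM) and Gpc1 in P2 against P4 (2.21 and 0.672). In the P6 comparison, Gpc2 (4.13 FPKM in P6) passed only through P6, and Sdc3 (0.798 in P6) only through the mean of the others.

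Among the enzymes that build and trim the chains, Hs3st1, a sulfotransferase, had 3.13 FPKM (P1), 4.33 (P2), 9.11 (P3), 27.9 (P4), 34.2 (P5) and 65.0 (P6). It was low in P1 and P2 and high in P4, P5 and P6, as Fgf1 was. Sulf1, which removes sulfate and lowers FGF signalling, had 35.2 FPKM (P1), 30.2 (P2), 26.9 (P3), 22.5 (P4), 9.37 (P5) and 65.9 (P6). It fell from P1 to P5 and was highest in P6. Ext1, which lengthens the chains, had 52.2 FPKM (P1), 38.0 (P2), 31.9 (P3), 31.1 (P4), 17.7 (P5) and 10.7 (P6). Like Fgf7, it fell at every step from P1 to P6, and 6 of the 11 enzymes that reached 1 FPKM met the falling order of P1 to P5, against 9.80% of all genes. Of these 6, Ext2 (49.4 FPKM in P1, 40.5 in P5) and Extl3 (24.5 and 20.8) fell little, and the others fell further. Ext2 and Extl3 were named after their values were seen. In P6 against the mean of the others, 3 of 11 enzymes were at least 2-fold higher and 2 lower, against 21.3% of all genes in either direction, with a median of 0.08 against 0.09 over all genes. Counted enzymes numbered 0 of 11 in P1 against P2 (all genes 5.19%) and 1 of 11 in P2 against P3 (3.66%). P4 against P5 had 1 of 11 (5.37%), P2 against P4 1 of 11 (12.5%) and P3 against P5 2 of 11 (13.6%).

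Adaptors link receptors to the ERK cascade. None of the 10 genes passed 2-fold in any comparison among P1 to P5, where 3.66% to 13.6% of all genes did, and 1 did in P6, against 21.3%. With so few genes, these counts are near the shares of all genes. That gene, Gab1, had 7.41 FPKM (P1), 8.33 (P2), 8.06 (P3), 13.8 (P4), 13.6 (P5) and 28.9 (P6). Frs2, which encodes the main docking protein, had 10.1 FPKM (P1), 11.6 (P2), 12.8 (P3), 12.9 (P4), 15.5 (P5) and 11.1 (P6). It was lowest in P1 and highest in P5, a range of under 2-fold.

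Feedback inhibitors and targets are the genes that FGF receptor signalling through ERK induces, although other receptors use the same route. Etv1, which encodes a transcription factor of the ETS family, had 0.747 FPKM (P1), 1.82 (P2), 4.49 (P3), 12.3 (P4), 17.6 (P5) and 37.2 (P6). Dusp6, a phosphatase that inactivates ERK, had 18.8 FPKM (P1), 33.4 (P2), 63.3 (P3), 40.2 (P4), 73.4 (P5) and 26.1 (P6). Both were lowest in P1, and within P1 to P5 both were highest in P5. Spry4 had 9.88 FPKM (P1), 12.9 (P2), 22.6 (P3), 24.4 (P4), 37.2 (P5) and 15.2 (P6), the order of levels of Fgfr2. Spry1, a relative that acts at the same step, ran the other way, with 18.5 FPKM (P1), 13.7 (P2), 16.1 (P3), 7.83 (P4), 2.22 (P5) and 1.90 (P6).

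Of the 13 feedback genes that reached 1 FPKM, 9 met the rising order from P1 to P5 that Fgfr2 and Fgfr4 met, and 0 met the falling order, against 22.9% and 9.80% of all genes. In P1 against P2, 3 of 12 were at least 2-fold lower in P1 and 0 higher, against 5.19% of all genes (median log2 difference -0.24 against -0.05). Etv1 and Dusp4, counted there, passed the minimum only through P2 (1.82 and 1.57 FPKM), and Dusp4 was named after its values were seen. In P2 against P3, 3 of 12 were at least 2-fold lower in P2 and 0 higher, against 3.66% of all genes in either direction, with a median log2 difference of -0.40, against -0.03 over all genes. P4 against P5, the same step in CD105- cells, had 0 lower and 1 higher of 13, against 5.37% of all genes (median -0.38 against -0.04). In P2 against P4 the list had 3 lower and 0 higher in P2 of 13, against 12.5% of all genes (median -0.52 against -0.08). In P3 against P5 the list had 3 lower and 1 higher in P3 of 13, against 13.6% of all genes (median -0.59 against -0.09). In P6, 3 of 12 were higher and 3 lower than the mean of the others, against 21.3% of all genes (median -0.53 against 0.09). The level of a transcript does not measure signalling, and no ERK readout was analysed here.

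**Figure D4:**
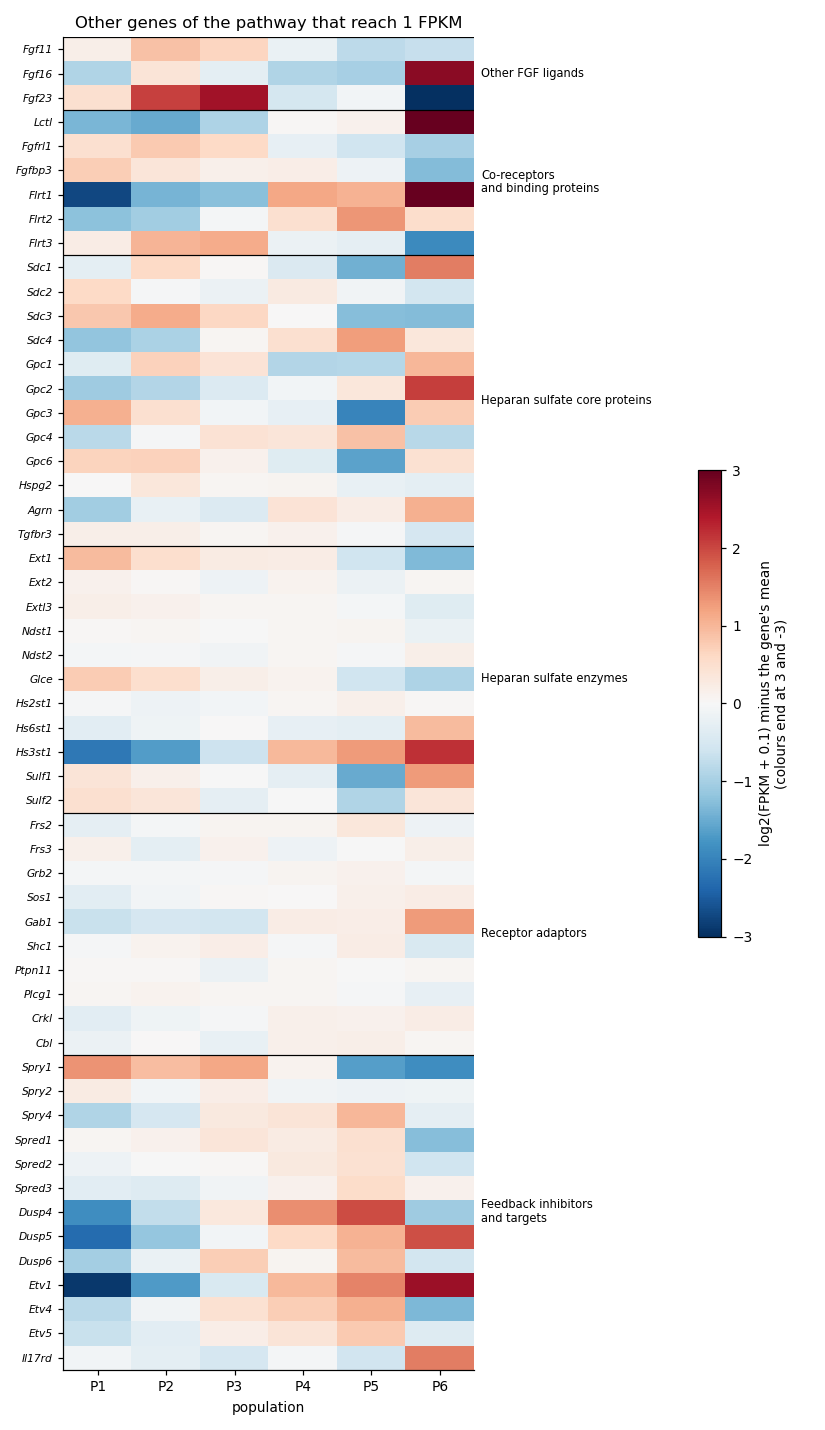
Colours give log2(FPKM + 0.1) of each gene minus its mean over the 6 populations (horizontal axis), for the pathway genes that reach 1 FPKM (vertical axis, grouped by list). Most feedback genes were low in P1 and high in P5, the adaptors other than Gab1 were nearly even, and Flrt1 was highest in P6. Lctl and Fgf16 reached 1 FPKM only in P6 and are shown only through it, so they are not counted as highest there.

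Marker lists of other cell types moved with some members. Of 10 mesothelial markers, 9 reached 1 FPKM, and their summed level was 73.0 FPKM (P1), 95.6 (P2), 148 (P3), 933 (P4), 757 (P5) and 2938 (P6). Wt1 was the most abundant in P1 to P3, with 50.3, 79.2 and 106 FPKM, and Upk3b in P4 to P6, while Cdh1 stayed at or below 0.0729 FPKM. The populations with the highest sums, P4, P5 and P6, were those with the highest Fgf1, and P6 was the population with the highest Fgf9 and Fgfr3. The log2 level of Fgf1 and the log2 mesothelial sum had an r of 0.94 and a rho of 0.89 over the 6 populations. Fgf9 (r = 0.76, rho = 0.94) and Fgfr3 (r = 0.83, rho = 0.83) went with the sum, although counting error does not separate the levels of Fgf9 in P1 to P5. Fgf7 (r = -0.90, rho = -0.94), Fgf10 (r = -0.86, rho = -0.77), Fgf2 (r = -0.85, rho = -0.83) and Fgfr1 (r = -0.80, rho = -0.83) ran against it. Fgfr2 (r = 0.43, rho = 0.60), Fgfr4 (r = 0.19, rho = 0.26) and Fgf18 (r = -0.28, rho = -0.26) followed it less closely. The part of mesothelial cells in these levels was not tested.

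Of 13 pancreatic acinar markers, 11 reached 1 FPKM, led by Amy2a5, and their sum was 4.31 FPKM (P1), 238 (P2), 24.0 (P3), 1277 (P4), 153 (P5) and 1863 (P6). The sum was highest in P6 and P4 and lowest in P1, and the acinar transcription factor genes Rbpjl and Ptf1a stayed at or below 0.491 and 0.248 FPKM. Adipocyte markers summed to 179.7 FPKM (P1), 151 (P2), 244 (P3), 221 (P4), 351 (P5) and 342 (P6), mostly Fabp4, with Lep at or near 0. Adipoq, Cfd, Cidec and Retn reached 1 FPKM only in P6, so they are not counted as highest there. Plin1 and Plin4, which reached 1 FPKM in other populations too, were highest in P6, with 14.4 and 7.35 FPKM, and Fabp4 was highest in P5. Mural markers summed to 16.8 FPKM (P1), 53.8 (P2), 95.7 (P3), 92.4 (P4), 155 (P5) and 68.6 (P6), led by Abcc9 in P1 and P2, by Myh11 in P3 to P5 and by Acta2 in P6. Like Fgfr2 and Fgfr4, this sum was lowest in P1 and highest in P5, and 3 of the 7 markers that reached 1 FPKM met the rising order, against 22.9% of all genes, among them Kcnj8, the gene closest to Fgfr4. Notch3 had 5.84 FPKM in P3 and 1.02 in P5, and Rgs5 stayed at or below 0.553 FPKM. The part of these cell types in the levels of the members was not tested.

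Endothelial markers summed to 1.93 FPKM (P1), 2.76 (P2), 4.26 (P3), 19.1 (P4), 12.2 (P5) and 113 (P6), in P4 to P6 mostly Esam and Kdr, while Pecam1 and Cdh5 stayed below 1 FPKM in every library. Leukocyte markers, led by Lyz2, summed to at most 45.1 FPKM, in P6. Fibroblast markers, led by Dcn, summed to between 9103 FPKM in P5 and 14299.7 in P1. The sum in P2, 11340.0 FPKM, lacks Col3a1, listed at 0 there and at 3389.6 FPKM in P1, so P1 and P2 cannot be ordered by it. In P6, Dpt had 8.70 FPKM and Lum 6.19, against at least 264 and 56.4 in the other populations. Of the 10 fibroblast markers, 5 were at least 2-fold lower in P6 and 0 higher, against 21.3% of all genes in either direction (median log2 difference -1.37 against 0.09). Pdgfra is in this count and median, and its call follows from the gate, since P6 was sorted as low for CD140a. The other markers counted were Pdgfrb, Lum, Dpt and Col14a1. Col1a1 (1735 FPKM) and Pdpn (125 FPKM) were highest in P6, though short of 2-fold above the mean of the others. Fgf7, like Dpt and Lum, was lowest in P6. Lum, Dpt and Col14a1, 3 of 10 fibroblast markers, also met the falling order of P1 to P5 that Fgf2, Fgf7, Fgf18 and Fgfr1 met, against 9.80% of all genes. The part of fibroblasts in the levels of the members was not tested.

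**Figure D5:**
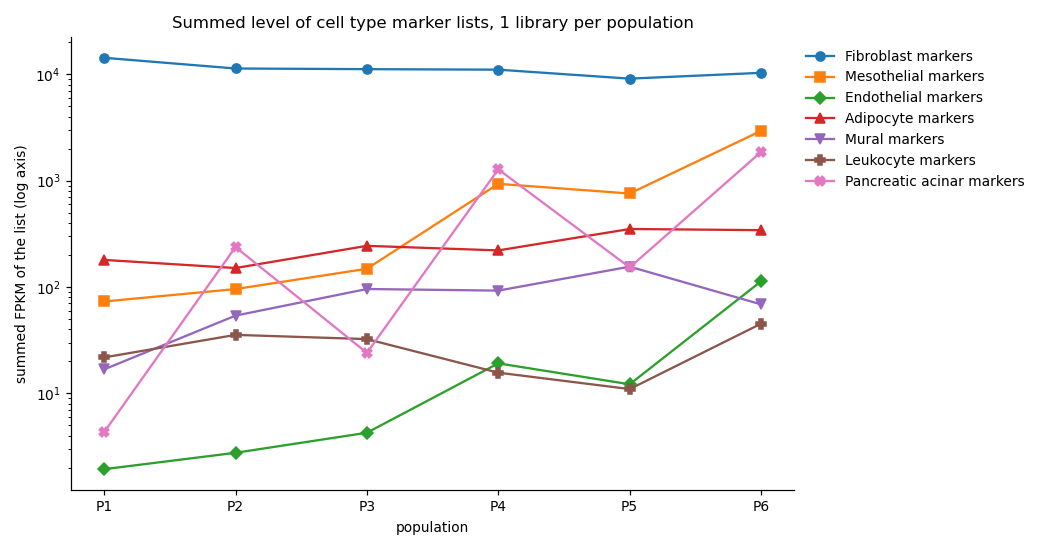
Points give the summed FPKM of each marker list (vertical axis, log scale) in the single library of each population (horizontal axis), and lines only join the points of a list. The mesothelial sum was 73.0 FPKM in P1 and 2938 in P6, and the acinar sum was high in P4 and P6.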

How the data were processed

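The authors deposited FPKM values per gene for each of the 6 libraries. The submitters' processing notes name TopHat2 2.0.7, Cufflinks 2.1.1 and the genome build mm10. FPKM is scaled to mapped reads, and no further normalization was applied. Entries that shared a symbol were summed (495 repeats among 23847 entries), and each member had a single entry.

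The members and lists were chosen with earlier results of these data known. Genes named in the text were the 10 members and some of the genes that fall under this rule: the genes of each pathway list with the highest level or the highest or lowest log2 difference in a comparison, the gene most correlated with a member, gate genes, marker genes and genes over a member on the other strand. Genes outside this rule are said to be so. Not every gene under it is reported here.

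Depth was estimated as the number of reads at which the low FPKM values of 3258 genes with a single GENCODE M21 transcript of at least 800 nt came closest to whole reads, with transcript length less 200 nt as the effective length. The range of depths searched was chosen after the values were seen. Between 56.0% and 59.1% of the values used per library came within 0.05 of a whole read. Reads of a member were estimated from its shortest complete coding transcript, which gives wide intervals, and intervals of ratios were exact (Clopper-Pearson). Procedures were tested on simulated data. Alternatives covered the pseudocount, minimum, threshold, library scaling and repeated symbols. The work used Python 3.11.15 with scipy 1.17.1, pandas 2.3.3 and numpy 2.4.6, and plots were drawn with matplotlib 3.10.9.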

Additional observations from a re-analysis of the deposited data

Results flagged for a closer look

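Fgf9 moved in opposite directions under the same contrast. Its log2 difference between intermediate and low ALDH activity was -0.32 in CD105+ cells (P2 against P3) and 0.25 in CD105- cells (P4 against P5), which differ by -0.57. Its log2 difference between CD105+ and CD105- cells was -0.47 at intermediate and 0.10 at low ALDH activity, which also differ by -0.57, since the same 4 libraries are used. Fgf9 was below 1 FPKM in all 4, the counting interval of each ratio included 1, and the difference was not tested.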

How the results depend on the processing

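No paired analysis was possible because the libraries carry no replicate numbers and stand for 1 sample of each population. Of 73 counts of members under other settings, 64 stayed within 1.5 times the reported count. The share of all genes under the same setting follows in brackets. A 1.5-fold threshold gave 3 members for P1 vs P2 (10.9%), 5 for P2 vs P4 (21.8%) and 7 for P3 vs P5 (23.4%). A 3-fold threshold gave 1 for P2 vs P3 (1.95%), 0 for P4 vs P5 (2.22%), 2 for P3 vs P5 (7.09%) and 4 for P6 (13.3%). Both follow from the threshold itself. A minimum of 5 FPKM gave 0 for P1 vs P2 (4.03%), since Fgfr4 is below it there. Division by Gapdh gave 5 for P2 vs P4 (15.2%), with 3 higher and 2 lower in P2, against 0 and 2, and it moved the median log2 difference of all genes by 0.47 in P2 vs P4 and 0.53 in P3 vs P5. The cause was not tested. Of 420 log2 differences of members between the same populations, 0 counted ones changed sign, but against single populations Fgfr2 was higher, not lower, in P6 than in P1 or P2, and Fgfr4 higher than in P1. Signs that changed under a scaling were those of Fgf9 and Fgfr3 where both levels were below 1 FPKM. For P6, setting it against P1 to P3, or leaving P4 out of the mean, was chosen after seeing the data, and gave 8 and 8 members. Against P1 to P3, Fgfr2 was lost and Fgfr1 gained. A pseudocount of 1 or a minimum of 5 FPKM lost Fgfr3 for P6, which left 7 members. With 1 library each, no difference has a replicate check, and Fgf9, Fgf7, Fgfr3 and Fgfr4 rest on few estimated reads where they are lowest (18, 24, 39 and 41).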
